A study of Homo sapiens with 2 samples.

Results

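A group of 10 imprinted genes that includes necdin (NDN) was followed in 786-VHL and 786-O kidney cancer cells. The genes were NDN, MAGEL2, SNRPN, PEG3, PEG10, MEST, PLAGL1, H19, CDKN1C and PHLDA2, and their probe sets were taken where the platform annotation named exactly 1 of these symbols. This gave 19 probe sets for 9 of the 10 genes, of 41091 single-gene probe sets for 19775 genes in all. H19 had 0 probe sets of its own. The group was chosen from earlier results on these 2 arrays, NDN being among the largest differences, so every member value below is a description and carries no test.

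786-O is a human clear-cell renal cell carcinoma line with a mutated VHL gene, and 786-VHL is a line derived from it that holds a functional VHL. Total RNA of each line was labelled with biotin and read on 1 expression array. The labels do not state how VHL was introduced, whether 786-VHL is a single clone, or the passage of either culture. With 1 array for 786-VHL and 1 for 786-O no difference could be set against replicates, and line, culture and array cannot be told apart.

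An imprinted gene is transcribed mainly from the allele inherited from 1 parent, because DNA methylation set in the germ line differs between the alleles. NDN, MAGEL2, SNRPN, PEG3, PEG10, MEST and PLAGL1 are expressed from the paternal allele, and H19, CDKN1C and PHLDA2 from the maternal allele. Many of these genes act on fetal and placental growth, and several change their methylation in tumours. An array reads total RNA, so neither the allele of origin nor methylation was measured here.

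Values are deposited intensities in arbitrary units. A probe set is called above the floor when the higher of its values passed 22.3, the median over both arrays together. Differences are log2(786-VHL intensity + 16) minus log2(786-O intensity + 16), so that a positive difference is higher in 786-VHL, and a fold is the same quantity on the linear scale. A difference of at least 1 is called 2-fold. Where 1 array lay below the floor, a lower bound of the fold is also given, computed with the floor in place of the dimmer value.

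NDN and MAGEL2 lie next to each other in the RefSeq annotation of chromosome 15, in the domain that is lost in Prader-Willi syndrome, yet only the NDN probe set was above the floor. The 250 bases before each start are shown because they are the neighbouring promoters of the member that differed most and of a member that stayed below the floor. The sequences are RefSeq's on GRCh38.p14, both on the minus strand, written 5′ to 3′, and capitals mark CpG dinucleotides, the sites that DNA methylation uses.
NDN, chr15:23687306-23687555: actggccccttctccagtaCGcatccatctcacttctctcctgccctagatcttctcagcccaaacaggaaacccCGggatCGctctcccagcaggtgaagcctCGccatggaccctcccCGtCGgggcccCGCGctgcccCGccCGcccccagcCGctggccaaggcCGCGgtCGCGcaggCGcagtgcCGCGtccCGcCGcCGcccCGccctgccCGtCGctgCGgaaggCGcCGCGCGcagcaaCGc
MAGEL2, chr15:23647868-23648117: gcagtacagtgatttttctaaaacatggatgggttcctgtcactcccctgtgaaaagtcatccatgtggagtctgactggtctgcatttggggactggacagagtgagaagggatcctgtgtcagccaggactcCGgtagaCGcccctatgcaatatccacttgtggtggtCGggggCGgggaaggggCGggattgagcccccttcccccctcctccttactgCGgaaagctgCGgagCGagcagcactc
The NDN window held 30 CpG dinucleotides, more than 87.6% of 35116 promoter windows of the same length, and the MAGEL2 window 8, more than 43.7% of them, beside a median of 11. GC content was 73.2% in the NDN window and 57.2% in the MAGEL2 window. ACGTG, a form of the core of the HIF-binding motif, searched on both strands, was found in 0 places in either window and in 18.5% of all windows. Other forms of the core were not counted. These are properties of the reference sequence, and say nothing of methylation or factor binding in these cells.

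NDN encodes necdin, a protein of the MAGE family that restrains the growth of postmitotic neurons and binds E2F and p53. Its 1 probe set, 209550_at, had an intensity of 338 in 786-VHL and 15.3 in 786-O. Only the 786-VHL value lay above the floor. The difference was 3.50, an 11.3-fold value with the pseudocount and at least 9.24-fold higher by the bound. No second probe set of NDN was on the array, so agreement between probes was not tested.

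PEG10, a gene of retrotransposon origin that is needed for placental development, was also brighter in 786-VHL. Its probe set 212094_at read 75.4 in 786-VHL and 12.1 in 786-O, a difference of 1.70 and at least 2.39-fold higher by the bound. Its other probe set, 212092_at, read 44.6 in 786-VHL and 22.07 in 786-O, a difference of 0.67 and at least 1.58-fold higher. Both probe sets lay above the floor in 786-VHL and below it in 786-O, so a bound is given for each. For 212092_at the 786-O value was just under the floor of 22.3, and its fold of 1.59 was close to its bound. The size of the 212094_at difference is known only as its bound.

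**Figure D1:**
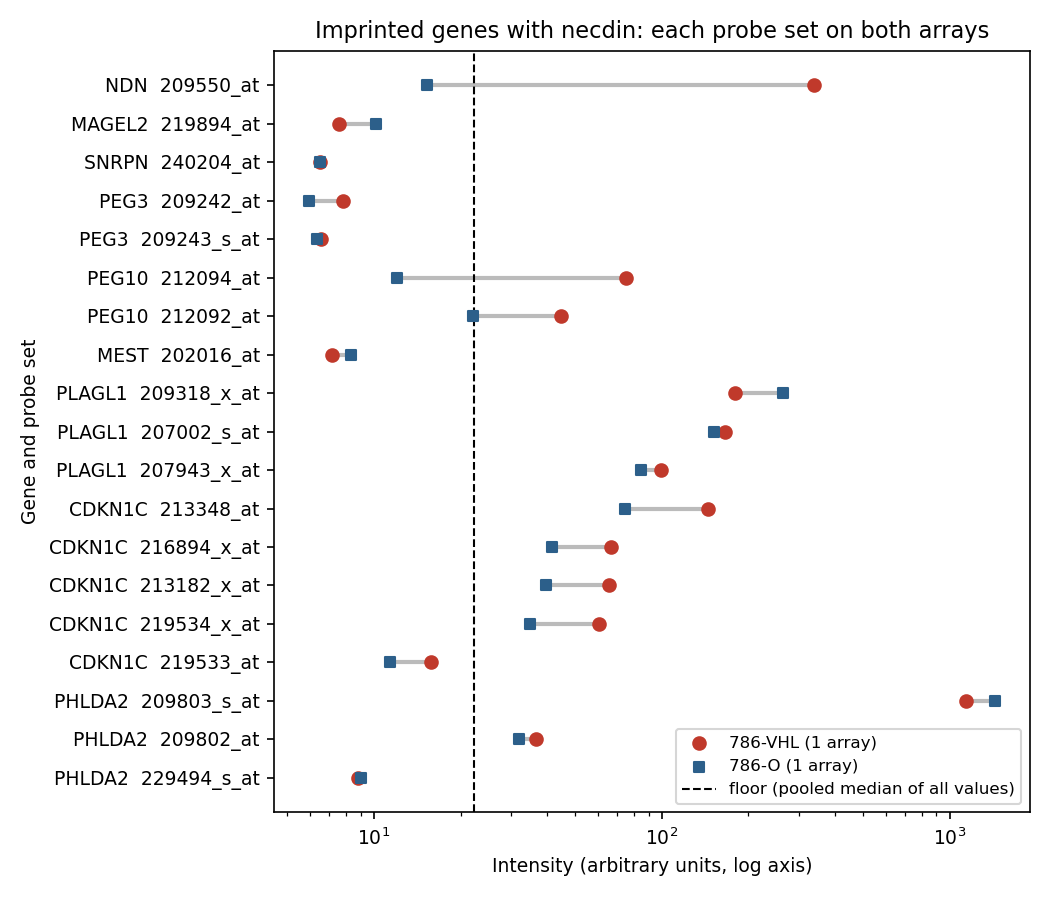
Intensity of each of the 19 member probe sets in 786-VHL (red circles) and 786-O (blue squares), 1 array each, on a log axis in arbitrary units, with the floor of 22.3 as a dashed line. NDN and both PEG10 probe sets cross the floor between the lines, with PEG10 212092_at just under it in 786-O. MAGEL2, SNRPN, PEG3 and MEST lie below it on both arrays.

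CDKN1C encodes p57, an inhibitor of cyclin-dependent kinases that slows entry into the cell cycle. Its brightest probe set, 213348_at, read 145 in 786-VHL and 74.5 in 786-O, a difference of 0.83. The probe sets 216894_x_at, 213182_x_at and 219534_x_at read 66.9, 65.6 and 60.4 in 786-VHL, against 41.4, 39.7 and 35.0 in 786-O. Their differences were 0.53, 0.55 and 0.58, so all 4 probe sets above the floor were higher in 786-VHL and none reached 2-fold. The fifth, 219533_at, lay below the floor at 15.8 in 786-VHL and 11.4 in 786-O.

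The differences of the 4 CDKN1C probe sets had an SD of 0.14, beside 0.33 between probe sets of a gene over the 6436 genes with several above the floor. Of the 4 probe sets, 3 carry the suffix _x_at, which marks probes that can match other sequences, and such probe sets of 1 gene can share probes, so they are not independent readings. CDKN1A and CDKN1B, which encode the related inhibitors p21 and p27, differed by -0.16 and -0.64.

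PLAGL1 encodes a zinc-finger transcription factor that can halt the cell cycle. Its probe set 209318_x_at read 179 in 786-VHL and 263 in 786-O, a difference of -0.51. The other probe sets, 207002_s_at and 207943_x_at, read 166 and 99.1 in 786-VHL, against 152 and 84.6 in 786-O, with differences of 0.11 and 0.19. The probe sets of this gene thus differed in sign, over a range of 0.71 log2 units, and gave no single direction. HYMAI, a noncoding transcript of the same imprinted locus, lay below the floor on both arrays.

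PHLDA2, a small phosphoinositide-binding protein that limits placental growth, was above the floor on both arrays. Its probe set 209803_s_at read 1142 in 786-VHL and 1444 in 786-O, a difference of -0.33. The probe set 209802_at read 36.7 in 786-VHL and 31.9 in 786-O, a difference of 0.14, and 229494_s_at was below the floor at 8.80 in 786-VHL and 9.001 in 786-O. The readings disagreed in sign and none came near 2-fold.

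The other members with probe sets of their own stayed below the floor on both arrays. MAGEL2, which encodes a regulator of ubiquitin ligases in endosomal sorting, read 7.56 in 786-VHL and 10.2 in 786-O. MEST, of the alpha/beta hydrolase fold, read 7.17 in 786-VHL and 8.32 in 786-O. PEG3, a zinc-finger protein gene often silenced in tumours, read 7.83 and 6.54 in 786-VHL, against 5.94 and 6.33 in 786-O, on its 2 probe sets. The single-gene probe set of SNRPN, which encodes a spliceosomal protein, read 6.50 on both arrays, the same deposited number. Such equal values were found for 2127 probe sets (3.89%) of the table. At this brightness a difference between the lines was not detectable, which does not show that the genes were silent.

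In all, 12 of the 19 member probe sets were above the floor in 786-VHL and 9 of them in 786-O. These 9 were above it on both arrays, where 22428 of 41091 single-gene probe sets were. The share of all probe sets on each array alone was not computed. The other 3 of the 12 passed through 786-VHL alone and so had to be higher there. Among these 3, PEG10 212092_at read 22.07 in 786-O, just under the floor of 22.3. On at least 1 array, 12 of the 19 passed, where 59.4% of 41091 single-gene probe sets did. Of the 12, 2 were at least 2-fold higher in 786-VHL, where 1.42% of 24414 single-gene probe sets were, and 0 were at least 2-fold lower, where 2.70% were (4.11% in either direction). NDN and PEG10 helped to choose the group, so nothing is read from these counts. The 9 above the floor on both arrays had a median of 0.19, beside 0.04 over the 22428 probe sets that met the same condition. The 9 came from PLAGL1, CDKN1C and PHLDA2 alone, with 4 of CDKN1C, so they are not independent readings.

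**Figure D2:**
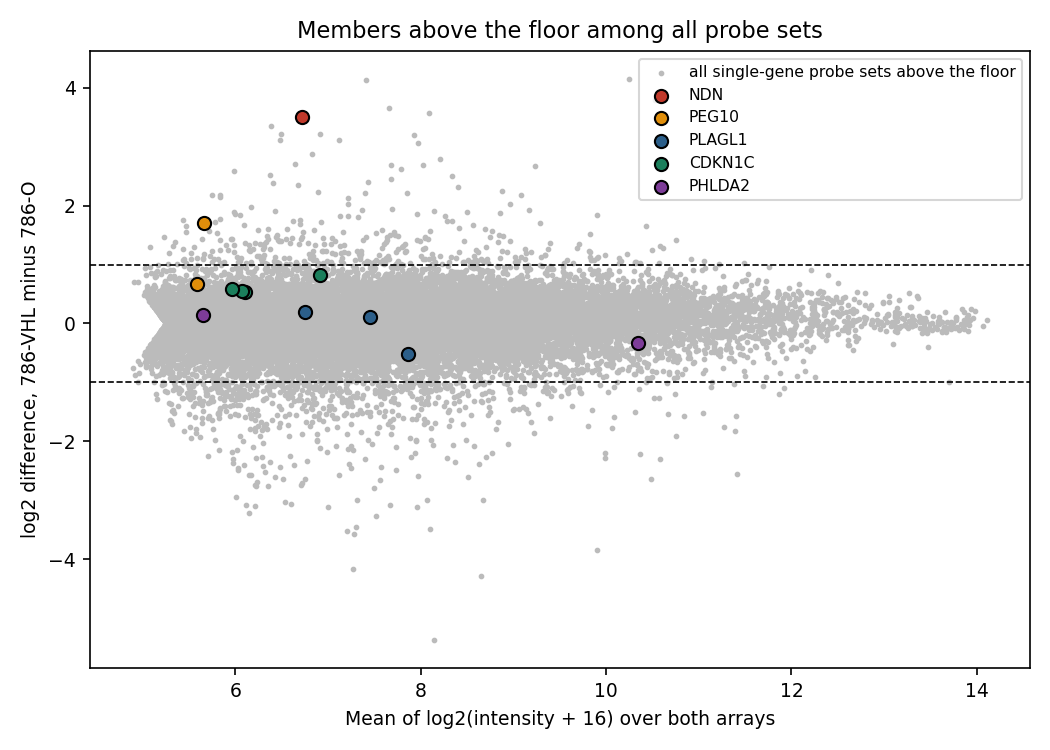
Difference between 786-VHL and 786-O (log2 units, y axis) against mean level (x axis) for the 24414 single-gene probe sets above the floor (grey), with the 12 member probe sets in colour and 2-fold as dashed lines. NDN at 3.50 and 1 PEG10 probe set at 1.70 lie above the upper line, and the PLAGL1 and PHLDA2 probe sets lie on both sides of 0.

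The genes on either side were read to see how far the NDN difference extended along the chromosome. The RefSeq gene order was used for this, with the 5 nearest genes above the floor on each side, members left out. The 10 neighbours of NDN, which are also those of MAGEL2 and SNRPN, had a median of -0.07 and 0 of them were 2-fold apart. On one side TUBGCP5, of the gamma-tubulin complex, differed by 0.65, CYFIP1, of the WAVE actin regulatory complex, by -0.24 and the magnesium transporter genes NIPA2 and NIPA1 by -0.03 and -0.54. On the other side PWAR6, a noncoding transcript of the Prader-Willi region, read 16.6 in 786-VHL and 37.1 in 786-O, a difference of -0.71 with the 786-VHL value below the floor. UBE3A, the ubiquitin ligase gene of Angelman syndrome, read 842 in 786-VHL and 705 in 786-O, a difference of 0.25, and ATP10A differed by -0.20. HERC2, the gene of this region's list that was above the floor and not among the 10 neighbours, differed by -0.12. MKRN3 and NPAP1, paternally expressed genes of the same domain, were below the floor on both arrays.

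PEG10 starts next to SGCE, the epsilon-sarcoglycan gene, which is also paternally expressed. SGCE read 730 in 786-VHL and 654 in 786-O, a difference of 0.15, smaller than on either PEG10 probe set. PPP1R9A, on the other side, read 48.8 in 786-VHL and 101 in 786-O, a difference of -0.85. Of the 10 neighbours of PEG10, 8 were higher in 786-VHL, where 54.5% of all single-gene probe sets above the floor were. The neighbours were counted by gene and that share by probe set, so the measures differ. The median of these neighbours was 0.17 and 0 were 2-fold apart.

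CDKN1C and PHLDA2 share a maternally expressed domain on chromosome 11. Between them, the transporter gene SLC67A1, listed under its older name SLC22A18, differed by 0.41, with 146 in 786-VHL and 106 in 786-O, and its antisense transcript SLC67A1-AS by 0.38. The strand that these probe sets read was not analysed here. KCNQ1OT1, the noncoding transcript that silences this domain on the paternal allele, was at the floor, with 22.2 in 786-VHL and 22.7 in 786-O. On the far side of KCNQ1, TSSC4 differed by -0.74 and the tetraspanin gene CD81 by -0.62. The differences thus had both signs along this stretch, and 0 of the 10 neighbours of CDKN1C were 2-fold apart.

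**Figure D3:**
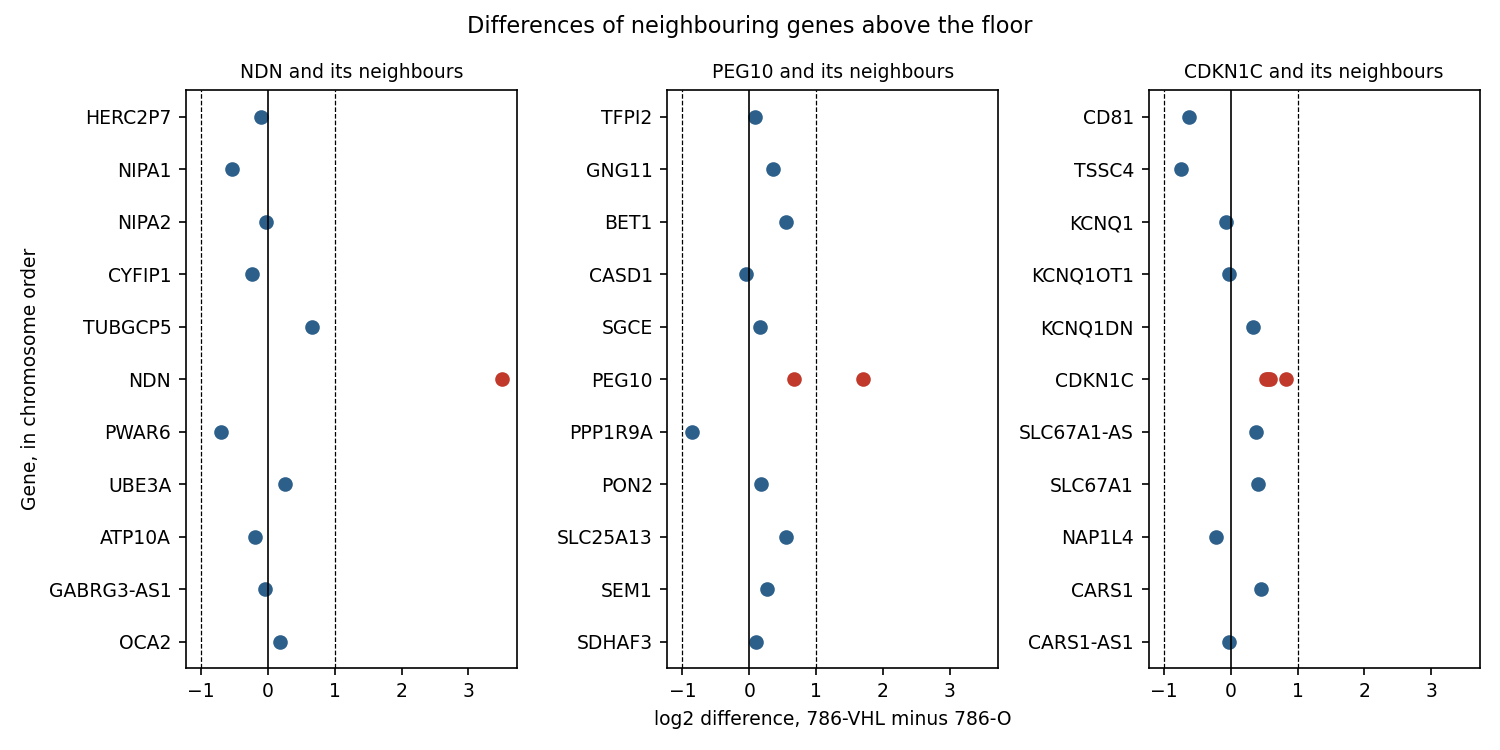
Differences between 786-VHL and 786-O (log2 units, x axis) of NDN, PEG10 and CDKN1C (red, each probe set above the floor) and of the 5 nearest genes above the floor on each side (blue, brightest probe set), in chromosome order. Dashed lines mark 2-fold, and 0 of the blue points pass them.

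Genes listed as imprinted outside the group were taken by the brightest probe set of each gene, and 1 of 35 above the floor was 2-fold apart. Among all genes above the floor on that measure, 1.54% were at least 2-fold higher in 786-VHL and 2.18% at least 2-fold lower (3.72% in either direction), and their median difference was 0.05. Of all single-gene probe sets above the floor, 54.5% were higher in 786-VHL by any size, a share that was not computed by gene. Of 13 genes above the floor on the list of other paternally expressed genes, 0 were 2-fold apart, 3 were higher, 9 were lower and the median was -0.03. The allele given to each listed gene was not checked, and for RB1, BLCAP and GNAS it may not hold, so these values describe the list only. PWAR6 had the largest difference, followed by FAM50B at -0.38 and DLK1, which encodes a Notch-family ligand, at -0.34. NNAT, which encodes neuronatin, read 45.2 on both arrays. GNAS, a locus whose products include a stimulatory G protein subunit, read 5558 in 786-VHL and 5821 in 786-O on its brightest probe set. Its 8 probe sets above the floor ranged from -0.35 to 0.45, and which GNAS transcript each one read was not analysed.

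Of 22 genes above the floor on the list of other maternally expressed genes, 7 were higher in 786-VHL, 15 were lower and the median was -0.18. Whether each listed gene is imprinted in kidney cells was not checked. At least 2-fold lower in 786-VHL was 1 gene, and 0 were at least 2-fold higher. The 1 was NTM, which encodes the adhesion protein neurotrimin and whose imprinting is seen in some tissues only. Its brightest probe set read 13.3 in 786-VHL and 117 in 786-O, at least 3.48-fold lower, whereas its 3 probe sets above the floor ranged from -2.19 to 0.07. ZNF264 differed by -0.96, with 22.7 in 786-VHL and 59.3 in 786-O, and its other probe set, at -1.25, was past 2-fold. PPP1R9A differed by -0.85, with another probe set at -0.99. MEG3, a noncoding RNA lost in many tumours, differed by 0.25, with another probe set at -0.06. GRB10, an adaptor that dampens insulin signalling, differed by 0.14, and its 3 probe sets above the floor reached 0.68.

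The MAGE family, to which necdin and MAGEL2 belong by a shared homology domain, had 9 genes above the floor of 24 with a probe set. One was at least 2-fold higher in 786-VHL and 1 at least 2-fold lower, with a median of -0.23. MAGEA6 read 47.0 in 786-VHL and 14.9 in 786-O, only at least 1.64-fold higher by the bound, and is uncertain because near-identical MAGEA copies can share its probes. MAGEC2 read 23.1 in 786-VHL and 73.2 in 786-O, a difference of -1.19. MAGEH1 differed by -0.99. MAGED1, which like necdin is a binding partner of the neurotrophin receptor p75, read 1560 in 786-VHL and 1605 in 786-O.

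Of 23 genes with a probe set that write, erase or guard DNA methylation at imprints, 19 were above the floor, and 0 of these were 2-fold apart. In 786-VHL, 13 were higher and 6 lower, with a median of 0.18. The de novo methyltransferase gene DNMT3B read 249 in 786-VHL and 131 in 786-O, a difference of 0.84 on its 1 probe set above the floor. The histone methyltransferase gene SETDB1 differed by 0.64, with another probe set at 0.09, and MBD4, a glycosylase that repairs deaminated CpG sites, by -0.55. The maintenance methyltransferase gene DNMT1 differed by -0.29 and its partner UHRF1 by -0.12. TRIM28, the corepressor that holds imprints together with ZFP57 and ZNF445, differed by -0.10. SMCHD1, a chromatin protein of X inactivation and imprinted clusters, differed by 0.18, but its 4 probe sets above the floor ranged from -1.25 to 0.18, and those of EHMT1 and EHMT2 also had both signs.

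Partners of necdin and relatives of p57 gave 12 genes above the floor, 6 higher and 6 lower, with 0 of them 2-fold apart and a median of -0.06. BBS4, which acts at the primary cilium, differed by 0.82 and had another probe set at 1.24. NUCB2 differed by 0.46, and E2F1 by -0.21. NGFR, the p75 receptor that necdin binds, lay under the floor on each array, at 8.73 in 786-VHL and 7.03 in 786-O.

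**Figure D4:**
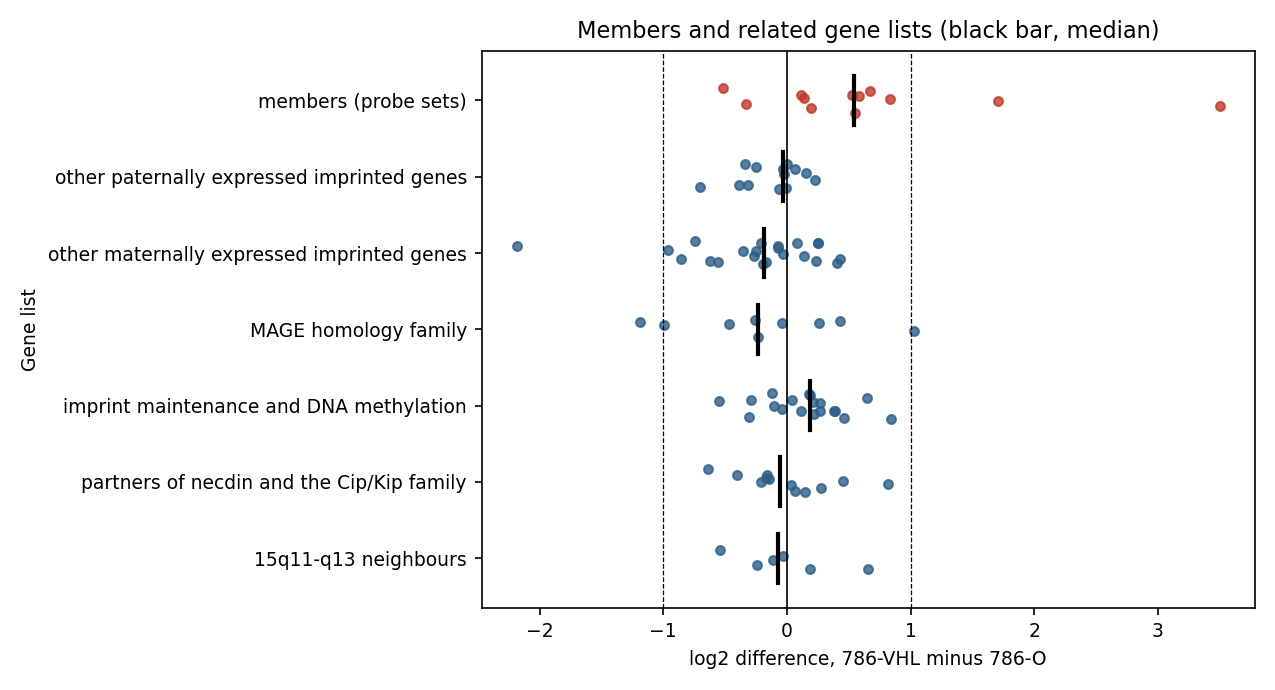
Difference between 786-VHL and 786-O (log2 units, x axis) for the 12 member probe sets above the floor (red) and for the genes above the floor of 6 related lists (blue, brightest probe set of each gene), with the median of each as a black bar and 2-fold as dashed lines. The member points include the NDN and PEG10 values that chose the group and 4 probe sets of CDKN1C, so their bar is not comparable with the bars of the lists, which hold 1 value per gene.

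The labelled tissue and other cell types were read from marker lists. PAX8, the kidney lineage factor, read 1068 in 786-VHL and 1521 in 786-O, a difference of -0.50. Its 8 probe sets above the floor ranged from -1.08 to -0.29. Of 9 kidney markers with a probe set, 7 were above the floor, 5 higher and 2 lower in 786-VHL. The tubular aminopeptidase gene ANPEP, at 535 in 786-VHL and 256 in 786-O, was 2.03-fold higher. The peptidase gene MME differed by -0.57, with another probe set at -0.99, and GGT1 by 0.12. LRP2 and CUBN were below the floor. Of 5 epithelial markers, KRT19 differed by 0.96, EPCAM by 0.47, KRT8 by 0.25 and KRT18 by -0.10, and CDH1 was below the floor. Each of the 4 leukocyte markers with a probe set was below the floor on both arrays. Because necdin is best known from neurons, neuronal markers are given with it. Of 10, 6 were above the floor, 3 higher and 3 lower in 786-VHL. The brightest probe sets of all 10 summed to 5416 in 786-VHL and 4495 in 786-O, but without NEFL the sum was lower in 786-VHL. The neurofilament gene NEFL read 1800 in 786-VHL and 489 in 786-O, 3.59-fold higher with its 3 probe sets from 1.39 to 1.85. SNAP25 differed by 0.50 and RBFOX3 by 0.17. TUBB3 differed by -0.16, with another probe set at 0.15, GAP43 by -0.17 and SYP by -0.03. MAP2, STMN2, ELAVL4 and SYT1 were below the floor. Of 10 trophoblast markers 6 were above the floor, and the brightest probe sets of all 10 summed to 323 in 786-VHL and 334 in 786-O. Of 4 endothelial markers 3 were above the floor and 0 were 2-fold apart. Of 5 fibroblast and pericyte markers 2 were above the floor, COL1A1 at -0.21 and LUM, which was at least 1.39-fold higher in 786-VHL. The part of any such cell state in the NDN and PEG10 values was not tested.

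The VHL probe sets gave no support to the labels. They read 15.96 and 7.96 in 786-VHL, against 28.9 and 6.32 in 786-O, near or below the floor. The brighter reading, above the floor in 786-O alone, ran against the line that holds a functional VHL, with a difference of -0.49. Whether these probe sets lie within the introduced sequence is not stated, so the direction of each difference depends on the labels being right.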

How the data were processed

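Expression was measured in 2 cell lines, 1 array each. The authors deposited 1 linear intensity for each probe set on each array, as the range of the values shows. Per the submitters' processing notes R 2.10 was used. How background was corrected, arrays normalized and probes summarised is, in the sources used here, not given. Any of these could compress or shift differences. Of 54613 probe sets, 41091 were annotated to 1 gene, 1801 to several and 11721 were unnamed here. Current symbols were found through the Entrez number for 41037 of those with 1 gene.

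All differences used the whole table with a pseudocount of 16, and a gene outside the group was represented by its probe set with the highest mean. With 1 array per line, no test was run. Members, gene lists and size rules were chosen with earlier results of these data known. Named genes were every member with each probe set, and of the other lists the genes at least 2-fold apart or with the 3 largest differences. Other genes in the text were picked for their known role or position, or after their values were seen. The symbols of 3 listed genes were updated through RefSeq synonyms. The 6 lists held 9 to 32 genes, and those with no single-gene probe set were left out. Promoter windows from RefSeq were at hand for NDN, MAGEL2, SNRPN, MEST, PLAGL1 and H19. The precision is limited by the number of arrays. Computations used Python 3.11.15, numpy 2.4.6 and pandas 2.3.3.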

Additional observations from a re-analysis of the deposited data

Results flagged for a closer look

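In all, 5 probe sets annotated to a member together with other genes were above the floor, in data that the member values do not use, and are given under their joint annotation. Those annotated to SNURF and SNRPN, 201522_x_at and 206042_x_at, read 954 and 739 in 786-VHL, against 889 and 664 in 786-O. A pair annotated to SNRPN, IPW, PWARSN and small nucleolar RNAs of the same locus, 213447_at and 221974_at, read 219 and 100.1 in 786-VHL, against 145 and 96.1 in 786-O. The differences of these 4 were 0.10, 0.15, 0.54 and 0.05. The probe set 224646_x_at, annotated to H19 and MIR675, read 23.2 in 786-VHL and 24.4 in 786-O, close to the floor of 22.3. None of the 5 was 2-fold apart, and which of the jointly named transcripts they read was not tested.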

How the results depend on the processing

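No paired analysis was possible because 786-VHL and 786-O had 1 array each, which also left no replicate to leave out. Of 48 alternative values of the 12 member probe sets above the floor, 43 moved by less than the SD between probe sets of a gene, 5 moved by more and 0 changed sign. NDN ranged from 2.34 with a pseudocount of 64 to 4.38 with a pseudocount of 1, and was 3.48 after quantile normalization and 3.49 with the intensity trend removed. PEG10 212094_at was 0.87 with a pseudocount of 64 and 2.55 with 1, and PEG10 212092_at was 0.34 with 64. The 2 member probe sets at least 2-fold higher became 1 with a pseudocount of 64, 1 with the floor at the 75th percentile and 4 with a threshold of 1.5-fold. They stayed 2 with the dimmer array set to the floor, an alternative chosen after seeing the data. With the floor at the 75th percentile, 5 member probe sets were above it in 786-VHL and 3 in 786-O. With the floor at the 25th percentile, 13 were above it in 786-VHL and 14 in 786-O, so the order of the lines depended on the floor. Of the MAGE genes, 1 was 2-fold apart over the median of probe sets and 0 with the floor at the 75th percentile or a pseudocount of 64, and of the necdin partners 1 was over the median of probe sets. Causes were otherwise not tested.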
